A study of Mus musculus with 8 samples.

Results

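The genes described here encode the Gli transcription factors, the proteins that restrain or turn over these factors, and the complex that passes the signal of Smoothened toward them at the base of the cilium. They are *Gli1*, *Gli2*, *Gli3*, *Sufu*, *Kif7*, *Spop*, *Evc*, *Evc2*, *Efcab7*, and *Iqce*. They were chosen by name for their place in the hedgehog (Hh) pathway. All 10 genes were present among the 16536 genes of the count table, and all 10 were among the 15421 genes that passed the filter on low counts.

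Pthrp-mCherry mice received SAG or its vehicle DMSO i.p. once a day from P30 to P36 and were sacrificed at P38. SAG activates Smoothened, the membrane protein that carries the Hh signal inward, and both groups carried the same mCherry reporter. From each of the 4 DMSO-treated and 4 SAG-treated mice, cells of the 2 femoral growth plates were sorted for mCherry, the reporter of *Pthlh* and thus of PTHrP, and for the surface protein CD73, and 1 total RNA library was sequenced. The sort selects for a reporter and a surface protein and not for chondrocytes as such, so a library can hold RNA of any cell that passed both gates.

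Hh ligands bind Patched at the primary cilium and relieve its inhibition of Smoothened. Active Smoothened is tethered near the ciliary base by Evc and Evc2, which Efcab7 and Iqce anchor there, and its signal releases Gli2 and Gli3 from Sufu so that they are no longer cut into repressors. *Gli1* is a direct target of these factors and is widely used as a readout of Hh signaling, and in the growth plate Indian hedgehog and PTHrP act on each other in a feedback loop that paces chondrocyte maturation.

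The libraries held between 24971992 and 46593090 counts, so that 3 counts corresponded to between 0.0670 and 0.114 CPM (each count relative to its library's total, with the totals adjusted by edgeR's TMM method), a floor that covers counting error only. Summed expression of 14 chondrocyte marker genes was between 50299 and 119234 CPM in DMSO-treated and between 20699 and 57610 CPM in SAG-treated mice, whereas that of 12 neutrophil marker genes was between 4839 and 14471 CPM and between 27654 and 43844 CPM. Summed B-lineage markers were between 48.0 and 287 CPM in DMSO-treated and between 10.1 and 18.0 CPM in SAG-treated mice, and summed osteoclast markers were between 195 and 409 CPM and between 767 and 1352 CPM. Of the 4 osteoclast markers tested, 2 had a log2 fold change (SAG minus DMSO) below 0 and the median was 0.19. The osteoclast sum thus does not stand for its list as a whole. No marker gene of the 10 cell-type lists that was in the table was at 0 in all libraries. DMSO replicate 4 had the lowest total, the lowest chondrocyte marker sum, and the highest neutrophil marker sum of its group, and SAG replicate 2 had the lowest chondrocyte marker sum and the highest neutrophil marker sum of all 8 libraries. In sorted bulk samples such as these, fewer cells of one type and less RNA per cell cannot be told apart.

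Mean CPM was lower in SAG-treated mice for 9 of the 10 genes, all except *Spop*. The log2 fold change was below 0 for these 9 genes after TMM scaling, but for 2 of 10 genes when libraries were scaled to the summed chondrocyte markers, and for 3 of 10 when the mean log2 CPM of the neutrophil markers was a covariate. The chondrocyte marker scaling moved the median log2 fold change of all tested genes to 1.02. In that fit and after TMM scaling, 9 of the 10 genes lay below the median of all genes. Rescaling shifted most of the 10 genes by similar amounts, so this is 1 result and not 2. *Efcab7* moved less (from -2.87 to -2.47) and *Sufu* more (from -0.95 to 0.40). With the neutrophil covariate, 3 of the 10 lay below the median of all genes. In 10 of the 12 neutrophil markers all SAG-treated mice were above all DMSO-treated mice, so that covariate and treatment can hardly be separated. Over all 15421 tested genes, 54.8% had a log2 fold change below 0. The median log2 fold change was -0.85 over the 10 genes and -0.08 over all tested genes. It was -1.01 over the 14 chondrocyte markers, with 14 below 0, and 2.01 over the 12 neutrophil markers, with 0 below 0. A lower median of this size was thus not particular to the 10 genes. By edgeR's quasi-likelihood test with an adjusted p under 0.05, none of them, or 0 of 10, was called, against 0.266% of all tested genes called lower and 2.62% called higher. At an unadjusted p under 0.05, 5 of the 10 genes were lower (*Gli1*, *Sufu*, *Kif7*, *Evc2*, and *Iqce*), against 6.5% of all tested genes, and 0 were higher, against 9.58%. At the same threshold 12 of the 14 chondrocyte markers were lower and 10 of the 12 neutrophil markers were higher. A high share of lower genes was thus not particular to the 10 genes. The groups did not overlap in 3 of the 10 genes. All 4 SAG-treated mice were below all DMSO-treated mice in *Gli1* and *Iqce*, against 3.84% of all tested genes, and above all of them in *Spop*, against 7.9%. DESeq2's Wald test called *Gli1* and *Iqce* lower, against 2.53% of all tested genes called lower and 5.17% called higher. These 2 shares count as not called the 3344 genes that DESeq2 left without an adjusted p. Limma voom with sample quality weights called *Gli1*, *Kif7*, *Evc2*, and *Iqce* lower, against 2.58% called lower and 6.45% called higher. Without DMSO replicate 4, edgeR called *Gli1* and *Sufu* lower, against 2.17% called lower and 6.44% called higher.

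**Figure D1:**
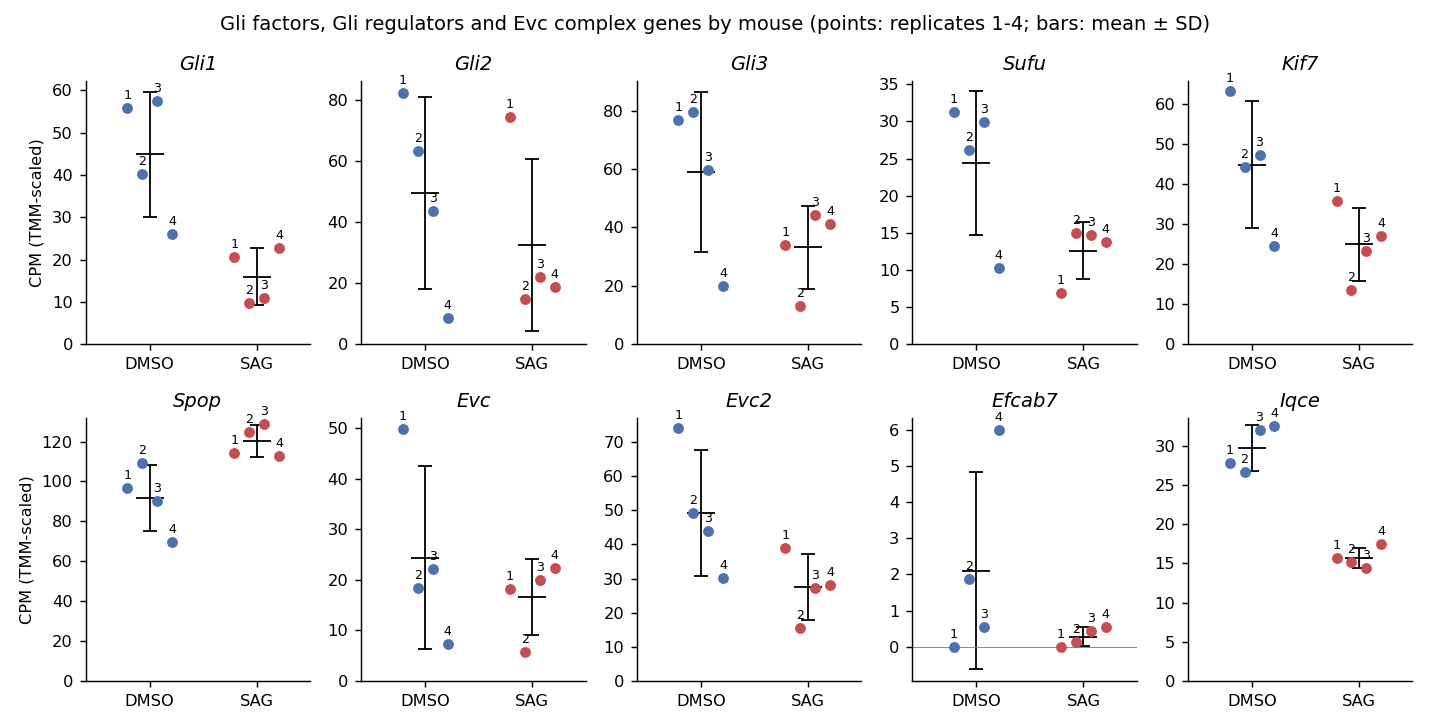
Expression of each gene in each mouse, in CPM on a linear axis that starts at 0 (*Efcab7* is drawn with room for its error bar below 0), for 4 DMSO-treated mice in blue and 4 SAG-treated mice in red, with replicate numbers beside the points and bars for the mean and SD. The SAG points of *Gli1* and *Iqce* lie below all DMSO points, those of *Spop* lie above, and the groups overlap in the other 7 genes.

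The 3 Gli factors differed in how far their groups stood apart. *Gli1* encodes the activator that is itself induced by Hh signaling, and its gene occupies bases 127329882 to 127341974 of chromosome 10 (GRCm38, minus strand). It was measured at 55.8, 40.2, 57.5, and 26.0 CPM in DMSO replicates 1 to 4, and at 20.7, 9.67, 10.8, and 22.8 CPM in SAG replicates 1 to 4. The lowest DMSO value, that of replicate 4, was just above the highest SAG value, that of replicate 4, and the other DMSO values stood well clear of the SAG group. DMSO-treated mice had a mean of 44.8 ± 14.8 CPM (SD, n = 4) and SAG-treated mice one of 16.0 ± 6.69 CPM (SD, n = 4), and the SAG mean was 35.6% of the DMSO mean. The log2 fold change of *Gli1* was -1.49 (standard error 0.37, 95% interval -2.30 to -0.68, adjusted p = 0.0569 by edgeR's quasi-likelihood test). Its adjusted p was 0.00287 with DESeq2's Wald test, 0.00585 with limma voom, and 0.0403 in edgeR with at least 10 counts required in every library. Without DMSO replicate 4 the log2 fold change of *Gli1* was -1.65, with an adjusted p of 0.0104 in edgeR, and in the other fits with 1 mouse left out the adjusted p reached 0.171. Exons of *Gli1* share 186 bases with those of *Arhgap9* and 265 with an antisense gene, both on the opposite strand, and whether the counting used the strand is not given in the sources used here.

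*Gli2*, the main activator of the pathway, lies on chromosome 1 from 118834132 to 119053619. Its expression was 82.4, 63.3, 43.5, and 8.66 CPM in DMSO replicates 1 to 4 and 74.4, 14.9, 22.1, and 18.7 CPM in SAG replicates 1 to 4. The groups overlapped fully, since the lowest of all 8 values was in a DMSO-treated mouse and SAG replicate 1 was as high as the upper DMSO-treated mice. For *Gli2* the log2 fold change was -0.61 (standard error 0.64, 95% interval -2.0 to 0.79, edgeR adjusted p = 0.730). It was -1.41 without SAG replicate 1 and -0.24 without DMSO replicate 1, the ends of the 8 fits with 1 mouse left out, and none of these fits called it.

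*Gli3* encodes the factor that mostly acts as a repressor after cleavage and occupies bases 15463235 to 15730026 of chromosome 13. It was measured at 76.8, 79.7, 59.5, and 19.9 CPM in DMSO replicates 1 to 4 and at 34.0, 13.0, 44.4, and 41.2 CPM in SAG replicates 1 to 4. DMSO replicates 1 to 3 were above all SAG-treated mice, whereas DMSO replicate 4 was below all of them except replicate 2. For *Gli3* the difference was -0.83 on the log2 scale (standard error 0.45, 95% interval -1.82 to 0.16, edgeR adjusted p = 0.415). Within groups, the SD of log2 CPM was 0.58 for *Gli1*, 0.88 for *Gli3*, and 1.26 for *Gli2*, and 96.9% of the 9312 genes with a mean of at least 10 CPM varied less than *Gli2*.

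Ratios between genes within a library do not depend on how libraries are scaled, so the transcripts of the factors were compared in this way. A ratio can still differ with the mix of cells in a library, and the cell-type markers differed between groups. What part that mix had in the ratios was not tested. Counts were not divided by length here, so only the change of a ratio between groups is read. The *Gli1*/*Gli2* count ratio was 0.677, 0.635, 1.32, and 3.00 in DMSO replicates 1 to 4 and 0.278, 0.649, 0.488, and 1.22 in SAG replicates 1 to 4. SAG replicate 1 had the lowest ratio and DMSO replicate 4 the highest, and between them the groups overlapped. The log2 ratio was lower in SAG-treated mice by a mean difference of -1.0 against a pooled SD of 0.97 (exact 2-sided permutation test, p = 0.171, adjusted p = 0.333 over 5 ratios). The *Gli1*/*Gli3* ratio was 0.875 ± 0.343 (SD, n = 4) with DMSO and 0.536 ± 0.211 (SD, n = 4) with SAG, a difference of -0.73 on the log2 scale (exact permutation test, p = 0.20, adjusted p = 0.333). The *Gli2*/*Gli3* ratio was 0.758 ± 0.262 (SD, n = 4) and 1.07 ± 0.809 (SD, n = 4), and its log2 difference of 0.26 turned to -0.18 without SAG replicate 1 (exact permutation test with all mice, p = 0.657, adjusted p = 0.657). The ratio of *Gli1* to *Ptch1*, the receptor gene that is also a Hh target, was 0.138 ± 0.0293 (SD, n = 4) and 0.108 ± 0.0213 (SD, n = 4), a log2 difference of -0.36 with a pooled SD of 0.31 (exact permutation test, p = 0.171, adjusted p = 0.333). The groups overlapped in all 5 ratios, and the smallest p that 4 mice against 4 allow is 0.0286.

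**Figure D2:**
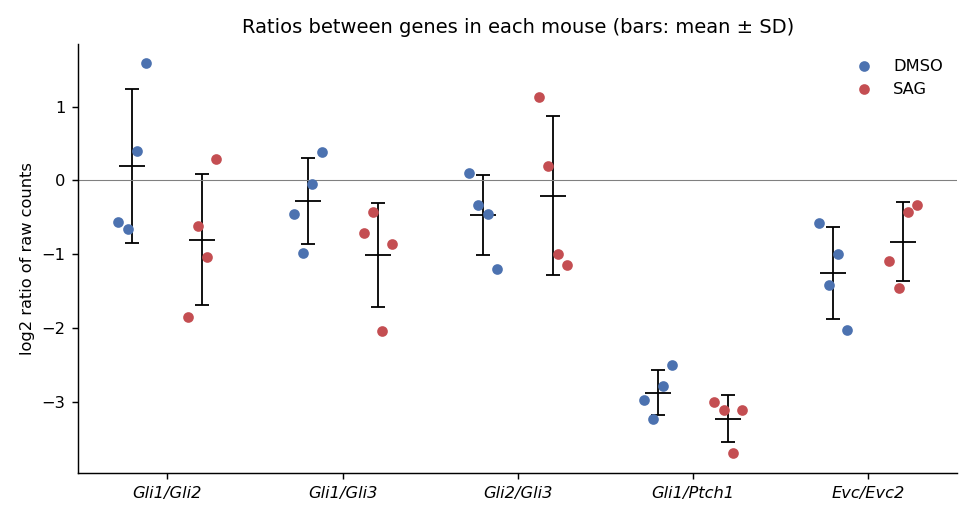
Log2 ratios of raw counts between genes in each mouse, for 4 DMSO-treated mice in blue and 4 SAG-treated mice in red, with bars for the mean and SD; the line marks equal counts. DMSO and SAG points overlap in every ratio, with the *Gli1*/*Gli2* difference of -1.0 close to its pooled SD of 0.97.

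Of the genes that act on the Gli proteins, *Sufu* and *Kif7* had lower means and *Spop* a higher mean in SAG-treated mice. *Sufu*, which encodes the cytoplasmic inhibitor that binds Gli proteins, lies on chromosome 19 from 46396896 to 46488804. Its expression was 31.3, 26.1, 30.0, and 10.2 CPM in DMSO replicates 1 to 4 and 6.90, 14.9, 14.7, and 13.8 CPM in SAG replicates 1 to 4. DMSO replicates 1 to 3 lay together above all SAG-treated mice, and only DMSO replicate 4 fell inside the SAG range. For *Sufu* the groups differed by -0.95 on the log2 scale (standard error 0.41, 95% interval -1.86 to -0.05, edgeR adjusted p = 0.274). Without DMSO replicate 4 it was -1.18 with an edgeR adjusted p of 0.0433, and in the remaining 7 fits with 1 mouse left out it was not called.

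*Kif7* encodes the ciliary kinesin that organizes the tip compartment where Gli proteins and Sufu gather. It lies on chromosome 7 from 79698098 to 79715720, and its exons share 88 bases with *Ticrr* and 1666 with an antisense gene, both on the opposite strand. Its expression was 63.1, 44.3, 47.2, and 24.5 CPM in DMSO replicates 1 to 4 and 35.6, 13.6, 23.3, and 27.0 CPM in SAG replicates 1 to 4. The groups met only through DMSO replicate 4, which lay below SAG replicates 1 and 4. The DMSO group averaged 44.8 ± 15.8 CPM (SD, n = 4) and the SAG group 24.9 ± 9.13 CPM (SD, n = 4), and the difference was -0.85 on the log2 scale (standard error 0.35, 95% interval -1.62 to -0.07, edgeR adjusted p = 0.258). The adjusted p of *Kif7* was 0.134 with DESeq2's Wald test and 0.0419 with limma voom.

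*Spop* encodes the substrate adaptor through which a Cul3 ubiquitin ligase marks Gli2 and Gli3 for degradation, and occupies bases 95414080 to 95493406 of chromosome 11. It was measured at 96.9, 109.3, 90.0, and 69.7 CPM in DMSO replicates 1 to 4 and at 114.2, 124.9, 129.0, and 112.9 CPM in SAG replicates 1 to 4. All SAG-treated mice were above all DMSO-treated mice, by a narrow gap. The DMSO group averaged 91.5 ± 16.6 CPM (SD, n = 4) and the SAG group 120.3 ± 7.93 CPM (SD, n = 4), and the log2 fold change was 0.39 (standard error 0.18, 95% interval -0.01 to 0.79, edgeR adjusted p = 0.322). It stayed between 0.31 and 0.49 with each mouse left out in turn. *Cul3*, the scaffold of the same ligase, averaged 124 ± 11.4 CPM (SD, n = 4) in the DMSO group and 173 ± 23.5 CPM (SD, n = 4) in the SAG group. All SAG-treated mice were again above all DMSO-treated mice, as in 7.9% of all tested genes. Its log2 fold change was 0.48 (edgeR adjusted p = 0.175). Of the 9 tested ubiquitin ligase genes, which include *Cul3*, 3 were below 0, so the ligase genes did not move together.

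*Evc* and *Evc2* are neighbors on chromosome 5 that are transcribed away from each other. *Evc* lies on the minus strand from 37289098 to 37336894 and *Evc2* on the plus strand from 37338499 to 37425055, and 1596 bases separate their RefSeq start sites. Both encode transmembrane proteins of the cilium, and loss of either human gene causes the skeletal dysplasia Ellis-van Creveld syndrome. The 250 bases upstream of each start are shown because the genes are a head-to-head pair with unequal profiles over the mice, and the upstream bases of *Kif7* are shown because its profile was almost that of *Evc2*. The sequences are those of RefSeq in GRCm38.p6, written 5′ to 3′ on the strand of the gene. Capitals mark, for *Evc* and *Evc2*, a run of 13 bases that they share in opposite orientation and, for *Kif7*, each GC box (GGGCGG or, on the other strand, CCGCCC). The *Evc* window is chr5:37336882-37337131 (minus strand), the *Evc2* window chr5:37338228-37338477 (plus strand), and the *Kif7* window chr7:79715708-79715957 (minus strand).
Evc: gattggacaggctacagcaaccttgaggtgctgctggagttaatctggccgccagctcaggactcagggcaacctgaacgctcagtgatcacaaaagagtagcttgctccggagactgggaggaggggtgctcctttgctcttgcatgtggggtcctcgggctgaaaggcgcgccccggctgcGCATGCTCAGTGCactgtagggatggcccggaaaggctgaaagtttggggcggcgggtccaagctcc
Evc2: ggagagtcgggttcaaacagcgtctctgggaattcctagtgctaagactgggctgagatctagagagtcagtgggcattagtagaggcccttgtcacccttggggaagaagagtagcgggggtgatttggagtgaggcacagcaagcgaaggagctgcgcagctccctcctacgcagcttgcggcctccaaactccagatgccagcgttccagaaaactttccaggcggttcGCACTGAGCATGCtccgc
Kif7: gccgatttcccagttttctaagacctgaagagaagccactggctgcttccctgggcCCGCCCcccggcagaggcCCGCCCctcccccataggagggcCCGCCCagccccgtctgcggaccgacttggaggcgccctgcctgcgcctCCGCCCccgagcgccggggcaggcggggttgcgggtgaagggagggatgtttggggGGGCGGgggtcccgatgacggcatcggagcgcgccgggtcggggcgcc

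The shared run is GCATGCTCAGTGC in the *Evc* window, between 67 and 55 bases upstream of the start, and GCACTGAGCATGC in the *Evc2* window, between 18 and 6 bases upstream. It was picked out after the sequences had been compared. With either orientation counted it occurred in 7 of 32851 upstream windows of the same length, or 0.0213%, and these 7 include the *Evc* and *Evc2* windows it was taken from. Of the 10 genes, 7 were matched in the promoter table (all except *Gli1*, *Efcab7*, and *Iqce*). Among the 21 pairs of these windows the longest shared run, of 14 bases, was between *Gli2* and *Evc2*, and *Gli3* and *Spop* also shared a run of 13 bases, so a run of this length was not particular to the neighboring pair. The *Kif7* window held 5 GC boxes and was 74.4% G or C, the *Evc* window held 1 box at 60.8%, and the *Evc2* window held 0 at 57.2%. A GC box on either strand was found in 6 of the 7 windows and in 32.7% of all windows. The Gli site GACCACCCA, or TGGGTGGTC on the other strand, was found in 0 of the 7 windows and in 0.225% of all windows, and its first 8 letters, GACCACCC, were also found in 0 of 7 and in 0.703% of all. The CCAAT box, or ATTGG on the other strand, was found in 2 of the 7 (*Sufu* and *Evc*) and in 33.8% of all. These counts are of letters in the windows and say nothing of binding.

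*Evc* was measured at 49.9, 18.3, 22.1, and 7.33 CPM in DMSO replicates 1 to 4 and at 18.2, 5.63, 20.1, and 22.4 CPM in SAG replicates 1 to 4. DMSO replicate 1 stood far above the other 7 mice, which overlapped. For *Evc* the fold change was -0.56 on the log2 scale (standard error 0.56, 95% interval -1.79 to 0.67, edgeR adjusted p = 0.713), and without DMSO replicate 1 it was 0.06.

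*Evc2* was at 74.2, 49.1, 44.0, and 30.0 CPM in DMSO replicates 1 to 4 and at 39.0, 15.5, 27.1, and 28.2 CPM in SAG replicates 1 to 4. Every DMSO-treated mouse was above SAG replicates 2 to 4, and SAG replicate 1 exceeded only DMSO replicate 4. DMSO-treated mice averaged 49.3 ± 18.4 CPM (SD, n = 4) and SAG-treated mice 27.5 ± 9.62 CPM (SD, n = 4), and the difference for *Evc2* was -0.85 on the log2 scale (standard error 0.34, 95% interval -1.59 to -0.10, edgeR adjusted p = 0.245). The adjusted p of *Evc2* was 0.121 with DESeq2's Wald test and 0.0470 with limma voom. The *Evc*/*Evc2* count ratio was 0.448 ± 0.183 (SD, n = 4) with DMSO and 0.591 ± 0.209 (SD, n = 4) with SAG, a log2 difference of 0.42 that was below the pooled SD of 0.58 (exact permutation test, p = 0.343, adjusted p = 0.429 over the 5 ratios).

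*Iqce*, which encodes an anchor of the Evc complex, lies on chromosome 5 from 140661827 to 140702378, far from the *Evc* pair. Its expression was 27.8, 26.7, 32.0, and 32.5 CPM in DMSO replicates 1 to 4 and 15.6, 15.1, 14.4, and 17.5 CPM in SAG replicates 1 to 4. The groups were tight and far apart, and DMSO replicate 4, the lowest of its group in 8 of the 10 genes, was here the highest. The DMSO group averaged 29.8 ± 2.94 CPM (SD, n = 4) and the SAG group 15.7 ± 1.31 CPM (SD, n = 4), and the SAG mean was 52.7% of the DMSO mean. The log2 fold change of *Iqce* was -0.92 (standard error 0.25, 95% interval -1.47 to -0.37, edgeR adjusted p = 0.0772), and with each mouse left out in turn it stayed between -0.98 and -0.85. Its adjusted p was 0.00316 with DESeq2's Wald test and 0.0424 with limma voom. The within-group SD of log2 CPM was 0.13, and 1.74% of the 9312 genes with a mean of at least 10 CPM varied less.

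*Efcab7* encodes the partner of Iqce in that anchor and lies on chromosome 4 from 99829198 to 99912788. Its raw counts were 0, 84, 18, and 158 in DMSO replicates 1 to 4 and 0, 6, 18, and 24 in SAG replicates 1 to 4. One mouse in each group had no count, which at these depths allows up to 0.0699 CPM in DMSO replicate 1 and 0.0862 CPM in SAG replicate 1. The DMSO group averaged 2.10 ± 2.71 CPM (SD, n = 4) and the SAG group 0.285 ± 0.256 CPM (SD, n = 4), and the log2 fold change of -2.87 had a 95% interval from -6.78 to 1.04 (edgeR adjusted p = 0.492). DMSO replicate 4 held most of the DMSO counts, and without it the log2 fold change of *Efcab7* was -1.46. A difference in *Efcab7* was not detectable at this depth and spread.

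**Figure D3:**
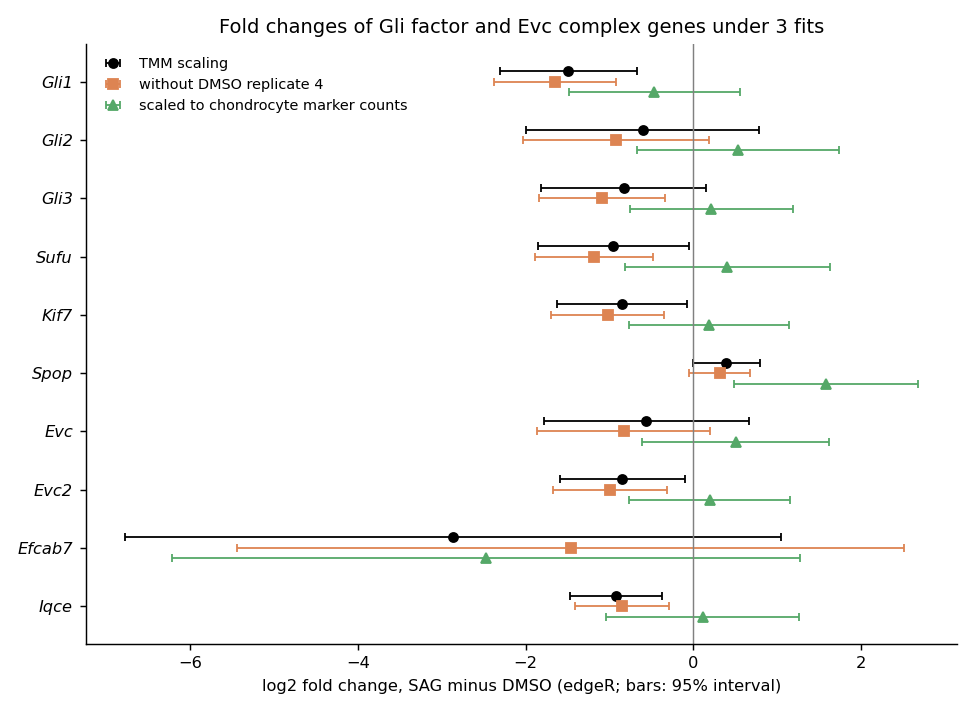
Log2 fold change of each gene, SAG minus DMSO, from edgeR with 95% intervals, for 3 fits: TMM scaling with all mice in black, TMM scaling without DMSO replicate 4 in orange, and libraries scaled to the summed chondrocyte marker counts in green. After TMM scaling 9 of 10 values are below 0 (*Gli1* at -1.49, *Iqce* at -0.92), and after chondrocyte marker scaling 2 of 10 are (*Gli1* at -0.47), where the median of all tested genes is 1.02.

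Levels between genes were compared per length, as CPM per kb of the combined exons of all annotated transcripts of a gene. This length ran from 2252 bases for *Efcab7* to 12037 bases for *Iqce*. The order depends on it and need not be that of transcript numbers. In DMSO-treated mice *Spop* was the highest at 29.0 ± 5.24 CPM per kb (SD, n = 4), followed by *Kif7* at 9.77, *Gli1* at 8.98, *Evc2* at 8.45, *Gli2* at 7.20, *Gli3* at 6.15, *Sufu* at 3.17, *Evc* at 3.17, *Iqce* at 2.47, and *Efcab7* at 0.934 CPM per kb. *Spop* was above *Kif7*, *Gli3* above *Sufu*, and *Iqce* above *Efcab7* in all 4 DMSO-treated mice. No other neighbors in this order were so separated, and *Gli1* was above *Evc2* in 2 of 4 mice. In SAG-treated mice *Gli1* stood in the sixth place at 3.20 ± 1.34 CPM per kb (SD, n = 4), after *Spop* at 38.1, *Kif7* at 5.43, *Gli2* at 4.74, *Evc2* at 4.70, and *Gli3* at 3.46 CPM per kb. *Evc2* was above *Gli3* in all 4 SAG-treated mice, whereas *Gli2* was above *Evc2* in 1 of 4 and *Gli3* above *Gli1* in 1 of 4, so these neighbors were not separated beyond the spread between mice. *Evc* followed at 2.15, *Sufu* at 1.64, *Iqce* at 1.30, and *Efcab7* at 0.126 CPM per kb.

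The profiles of the genes over the 8 mice were compared by the root mean square difference of log2 CPM after each gene was centered on its own mean, where 0 means the same profile. *Kif7* and *Evc2* were the closest of the 45 pairs among the 10 genes, at 0.11. Of 9311 other genes, *Evc2* was the nearest to *Kif7*, and *Kif7* was the third nearest to *Evc2*. *Evc* stood at 0.55 from *Evc2*, and *Evc2* held rank 350 among the genes nearest to *Evc*. The genes nearest to *Gli1* were *Mdfi* at 0.23, *Adamts3* at 0.27, and *Dlx5* at 0.29, where the median gene stood at 1.02. The nearest to *Gli2* were *Cacna1c* at 0.21, *Wasf3* at 0.25, and *Pcolce2* at 0.28, and the nearest to *Gli3* were *Garem1* at 0.19, *Ddah1* at 0.21, and *Ube2e2* at 0.21. The nearest to *Evc* were *Dsel* at 0.20, *P3h4* at 0.22, and *Mcoln2* at 0.28. These are descriptions over 8 libraries that also differed in depth and in cell-type markers.

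Because the chondrocyte markers moved with treatment and with single libraries, each gene was also expressed per 1000 counts of the 14 chondrocyte markers. *Kif7* was then at 0.530, 0.422, 0.520, and 0.488 in DMSO replicates 1 to 4 and at 0.633, 0.657, 0.474, and 0.469 in SAG replicates 1 to 4. The highest library was 1.56-fold above the lowest on this scale and 4.64-fold above it in CPM. *Evc2* likewise spanned 1.60-fold per marker count and 4.79-fold in CPM. On this scale both genes spanned less than in CPM, and their groups overlapped. How many of all tested genes spanned as little per marker count was not counted.

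*Gli1* was at 0.468, 0.383, 0.634, and 0.516 per 1000 marker counts in DMSO replicates 1 to 4 and at 0.367, 0.467, 0.220, and 0.395 in SAG replicates 1 to 4. The groups of *Gli1*, which did not overlap in CPM, overlapped on this scale. *Iqce* also overlapped, at 0.233 to 0.646 with DMSO and 0.278 to 0.731 with SAG, and spanned 3.14-fold per marker count against 2.25-fold in CPM. *Spop* remained apart, at 0.813 to 1.39 with DMSO and 1.96 to 6.03 with SAG, and spanned 7.42-fold per marker count against 1.85-fold in CPM. The marker sums were mostly lower in SAG-treated mice, which by itself widens the gap of a gene that is higher in CPM. How many of all tested genes stood apart on this scale was not counted.

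**Figure D4:**
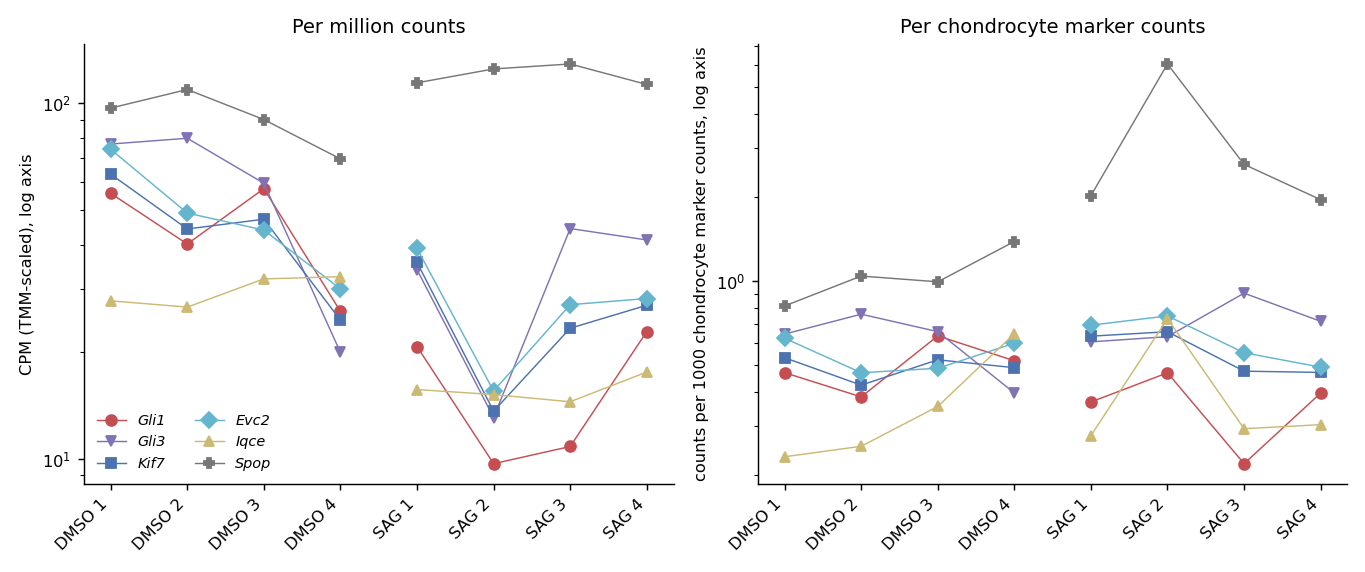
*Gli1*, *Gli3*, *Kif7*, *Evc2*, *Iqce*, and *Spop* in each of the 8 mice, in CPM (left) and in counts per 1000 chondrocyte marker counts (right), both on log axes; lines only join the points of 1 gene within a group. *Kif7* spans 4.64-fold on the left and 1.56-fold on the right, whereas *Spop* spans 1.85-fold on the left and 7.42-fold on the right.

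In the fit across all genes with libraries scaled to the chondrocyte markers, the median log2 fold change was 1.02 over all tested genes and 0.20 over the 10 genes. As after TMM scaling, 9 of the 10 were below the median of all genes. This is the same result again, since most of the 10 genes and that median moved by similar amounts. The log2 fold change of *Gli1* was -0.47 in that fit (edgeR adjusted p = 0.515). *Gli2*, *Gli3*, *Sufu*, *Kif7*, *Evc*, *Evc2*, and *Iqce* turned to values between 0.11 and 0.53, and *Spop* was at 1.58 (edgeR adjusted p = 0.0817). With the neutrophil marker score as a covariate, *Gli1* was at -0.86 (edgeR adjusted p = 0.627), *Iqce* at -1.25 (edgeR adjusted p = 0.295), and *Spop* at 1.02 (edgeR adjusted p = 0.252), and 6 of the 10 genes turned to values above 0. The groups did not overlap in 10 of the 12 neutrophil markers, so that fit can hardly separate the score from treatment. The standard error of *Gli1* was 0.81 in it, against 0.37 without the covariate. In these fits 0 of the 10 genes were called, where 0.00648% of all tested genes were called higher and none lower with marker scaling, and 0.0713% lower and none higher with the covariate. What part the markers of chondrocytes, neutrophils, B-lineage cells, and osteoclasts had in the differences of these genes was not tested.

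The other genes of the pathway were taken from 5 lists with 53 genes, of which 50 were tested. Expression of 1 was higher and that of 1 was lower in SAG-treated mice (edgeR, adjusted p under 0.05), and an unadjusted p under 0.05 was reached by 4 genes in each direction. For comparison, the shares over all tested genes were 2.62% higher and 0.266% lower, and 9.58% and 6.5% unadjusted. The median log2 fold change of the 50 genes was -0.18, with 27 of 50 below 0, where 54.8% of all tested genes were below 0. The 5 lists differed in this. Below 0 were 6 of 7 genes for ligands and their release (median -0.56), 7 of 9 receptors and coreceptors (-0.57), and 6 of 7 further Gli targets (-0.91). Only 5 of 18 kinases and genes of the cAMP arm (median 0.18) and 3 of 9 ubiquitin ligase genes (0.10) were below 0. Among 7 tested genes for ligands and their release, *Ihh*, the ligand of the growth plate, was lower (log2 fold change -3.63, edgeR adjusted p = 0.0238), and *Scube1*, which encodes a secreted relative of the factors that release Hh ligands, was at -1.14 (edgeR adjusted p = 0.145). Among 9 tested receptors and coreceptors, 0 were called, and *Ptch1* averaged 340 ± 131 CPM (SD, n = 4) in the DMSO group and 147 ± 48.0 CPM (SD, n = 4) in the SAG group, which differed by -1.21 on the log2 scale (edgeR adjusted p = 0.0859). *Hhip*, which encodes a decoy receptor, was at -0.76 (edgeR adjusted p = 0.421).

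Among 18 tested kinases and genes of the cAMP arm, which act between Smoothened and the Gli factors, *Arrb2* was higher, at 96.9 ± 37.9 CPM (SD, n = 4) in the DMSO group and 330 ± 79.7 CPM (SD, n = 4) in the SAG group, a difference of 1.77 on the log2 scale (edgeR adjusted p = 0.0116). *Arrb2* encodes an arrestin that is also abundant in leukocytes. *Grk2*, the kinase that acts on active receptors including Smoothened, was at 0.80 (edgeR adjusted p = 0.101). Of 9 tested ubiquitin ligase genes 0 were called, and *Btrc*, which encodes the adaptor that leads to Gli processing, was at -1.08 (edgeR adjusted p = 0.132). Of 7 tested further Gli targets 0 were called and 6 were below 0, with *Ccnd1* (cyclin D1) at -0.93 (edgeR adjusted p = 0.333) and *Pthlh*, the gene behind the reporter, at 0.37 (edgeR adjusted p = 0.606).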

How the data were processed

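Total RNA of sorted mCherry+CD73+ cells from 8 mice was sequenced after stranded library preparation for picogram inputs. The authors deposited raw counts per gene and library, all whole numbers, without normalization. The submitters' processing notes name kallisto, DESeq2, and GRCm38 without stating their roles, and the steps from reads to counts are not given in the sources used here. Libraries were assigned to treatment and replicate number by their deposited labels.

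Counts were analyzed in R 4.3.3 with edgeR 4.0.16 (filterByExpr, TMM scaling, robust quasi-likelihood test) and limma 3.58.1 and DESeq2 1.42.0 as alternatives, with Benjamini-Hochberg adjustment over all genes tested in each fit, 15421 in edgeR. DESeq2 left 3344 of these without an adjusted p. The common dispersion was 0.466. A prior count of 2 was added for log2 CPM. The fits were tested on simulated data. Lengths, positions, and overlaps came from GENCODE M21 (GRCm38), and sequences from RefSeq (GRCm38.p6). Of 6 planned ratios of counts, *Efcab7*/*Iqce* was not computed because *Efcab7* had 0 counts in 2 libraries, and the others were compared by 2-sided exact permutation tests (70 relabellings).

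The 10 genes, the gene lists, and the comparisons were chosen with earlier results of these data known. Named genes were these 10, *Ptch1*, the pathway genes with an adjusted p under 0.05, the 2 with the smallest p in each list, and the 3 genes nearest to *Gli1*, *Gli2*, *Gli3*, and *Evc*. The pair of *Kif7* and *Evc2* and the 3 printed sequences were singled out after their values were seen. Alternatives were 2 other tests, 3 other scalings, 2 other filters, a replicate block, a neutrophil marker covariate, each mouse left out in turn, and 5 counts added in the ratios.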

Additional observations from a re-analysis of the deposited data

Results flagged for a closer look

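In groups of 4 mice, 3 values stood far from the others of their group, where 30 groups were examined and chance gives about 1.5 such values. *Gli2* in SAG replicate 1 was at 74.4 CPM, with the next SAG-treated mouse at 22.1 CPM. *Sufu* in SAG replicate 1 was at 6.90 CPM, below the next SAG-treated mouse at 13.8 CPM. The log2 ratio of *Gli1* to *Ptch1* counts in SAG replicate 3 was -3.70, with the next at -3.11.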

How the results depend on the processing

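Of the fold changes of the 10 genes under the alternatives, 145 kept their direction and their side of the threshold, 9 passed the threshold that the reported fit missed, and 14 reversed. Against 0 genes called as reported, 2 were called by DESeq2 (*Gli1*, *Iqce*), 4 by limma voom (*Evc2*, *Gli1*, *Iqce*, *Kif7*), 1 with at least 10 counts in every library (*Gli1*), and 0 to 2 with 1 mouse left out. DESeq2 gave *Efcab7* the same direction but no adjusted p. Scaling to chondrocyte markers moved the median of all tested genes to 1.02 and turned *Gli2* to 0.53, *Gli3* to 0.22, *Sufu* to 0.40, *Kif7* to 0.19, *Evc* to 0.50, *Evc2* to 0.19, and *Iqce* to 0.11. The neutrophil covariate turned *Gli2* to 2.86, *Gli3* to 1.49, *Sufu* to 0.26, *Kif7* to 0.37, *Evc* to 1.94, and *Evc2* to 0.39, and with 1 mouse left out *Evc* ranged from -0.83 to 0.061, reversed without DMSO replicate 1. The neutrophil covariate could hardly be separated from treatment, because the groups did not overlap in 10 of the 12 neutrophil markers. The causes were not tested.

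Over all genes 404 were called higher and 41 lower. The counts were 797 and 390 with DESeq2, 995 and 398 with limma voom, 1 and 0 with chondrocyte marker scaling, 0 and 11 with the neutrophil covariate, and 558 and 87 with at least 10 counts. With 1 mouse left out they ranged from 80 to 1017 and from 4 to 343, both highest without DMSO replicate 4. The replicate numbers showed little sign of pairing, with deviations of same-numbered mice that correlated at 0.12, 0.022, 0.019, and 0.010 for replicates 1 to 4. The best match among SAG-treated mice had the same number for DMSO replicates 1 and 3 but not for 2 and 4. These values cannot settle whether the mice were paired. A replicate block gave 334 and 18 calls, 0 of them among the 10 genes, with *Gli1* at -1.54. With 1 mouse left out the log2 ratio differences stayed between -1.36 and -0.53 (*Gli1*/*Gli2*), -0.97 and -0.39 (*Gli1*/*Gli3*), -0.18 and 0.58 (*Gli2*/*Gli3*), -0.48 and -0.20 (*Gli1*/*Ptch1*), and 0.16 and 0.65 (*Evc*/*Evc2*). Depth limited mainly *Efcab7*, with 0 to 158 counts per library, where the lowest count of the other 9 genes was 193.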
